A study of Mus musculus with 4 samples.

Results

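The genes described here are those of the SNAI, ZEB and TWIST families of transcription factors together with *Cdh2* and *Vim*, taken from the deposited tables of a *Bmal1* KO study in mouse embryonic stem cells (ESCs). They were found by symbol. Of the 9 genes named, *Snai1*, *Snai2*, *Snai3*, *Zeb1*, *Zeb2*, *Twist1*, *Cdh2* and *Vim* each matched 1 row, so that 8 of the 19645 features in the tables were genes of this group. *Twist2* matched no row and was not analysed here. RNA was sequenced from WT ESCs (2 libraries) and from *Bmal1* KO ESCs (2 libraries), the latter made with CRISPR-Cas9 by targeting the exon of *Arntl*, the gene for BMAL1, that holds its start codon. BMAL1 is the bHLH-PAS activator of the circadian clock, and the comparison asks which transcripts of undifferentiated ESCs differ without it. The KO line is a single picked clone. ESCs were grown on gelatin in serum with leukaemia inhibitory factor (LIF). The methods call the libraries biological replicates but describe neither the cultures nor the days behind them, so p-values measure the spread between these 4 libraries only.

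In an epithelial to mesenchymal transition, cells lose adherens and tight junctions and gain motility. The SNAI zinc finger proteins, the ZEB zinc finger homeobox proteins and the TWIST bHLH proteins are the transcription factors best known for driving it, in gastrulation, neural crest and carcinoma. SNAI and ZEB proteins bind E-box elements of the form CAGGTG in promoters such as that of *Cdh1* (E-cadherin) and recruit corepressors there, whereas *Cdh2* (N-cadherin) and *Vim* (vimentin) are among the effectors that mesenchymal cells express. Mouse ESCs are epithelial in character and hold their colonies together with E-cadherin.

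Expression was given as FPKM, the number of fragments on a transcript divided by its length and by the depth of the library. Levels can then be compared between genes, and between libraries as far as the libraries are alike in make-up. Features without a symbol held 26.8% and 37.3% of the summed FPKM in WT and 19.0% and 18.1% in KO libraries. Quantile normalization and median-of-ratios scaling are among the alternative settings given below. In long single-transcript genes with very low values, FPKM multiplied by transcript length fell on steps whose first unit was worth 0.0449 to 0.0501. Read as 1 fragment, that step puts the depth at about 19950000 to 22270000 fragments per library, which is an estimate and not a deposited number. *Arntl* was at 6.05 and 6.29 FPKM in WT and 5.95 and 5.92 FPKM in KO libraries, so the level of this transcript does not check the genotype of a line with a small deletion. The Y-linked genes *Eif2s3y*, *Ddx3y* and *Uty* were called up-regulated in KO, with *Eif2s3y* at 1.40 and 2.04 FPKM in WT and 44.6 and 53.1 FPKM in KO libraries. The WT and KO lines therefore differ in Y-linked RNA as well as in *Bmal1*, and the part of either in any result below cannot be told apart. The pluripotency factor *Pou5f1* was at 1389 to 1620 FPKM in all 4 libraries. Of the 8 ESC markers 0 were called in limma, where 4.14% of all tested features were. Of the 8 markers, 5 had an unadjusted p below 0.05, as did 3844 of all 12990 tested features. Of these 5 markers, *Klf4* and *Tdgf1*, picked out after their values were seen, had adjusted p-values of 0.0177 and 0.0322. Their log2 fold changes were -0.46 and -0.36. Of 10 fibroblast markers 6 were listed, with summed FPKM of 1.91 to 2.23 in WT and 2.66 to 3.31 in KO, most of it *Thy1*. Their defining collagens *Col1a1*, *Col1a2* and *Col3a1* stayed at or below 0.217 FPKM in every library. The part of the markers that differ in the results below was not tested. Of 9 primitive endoderm markers 3 were tested and 0 were called in limma (2 at an unadjusted p below 0.05), and of 8 mesoderm markers *Eomes* was tested and was called down-regulated. Of 6 neural crest markers *Foxd3*, which ESCs also express, was tested and was not called (log2 fold change -0.12, adjusted p = 0.431). In these bulk samples fewer expressing cells and less RNA per cell cannot be told apart.

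The levels of the 8 listed genes spanned from 0.0418 to 58.8 FPKM. *Vim* was far above the others, with a mean of 50.6 FPKM that was higher than that of 89.5% of all features with a symbol. *Twist1* and *Snai3* followed with a mean of 3.30 FPKM each, then *Zeb1* with 1.91, *Snai1* with 1.34, *Cdh2* with 0.563, *Snai2* with 0.182 and *Zeb2* with 0.0987 FPKM. Neighbours in this order overlapped in their ranges over libraries except for *Vim* and *Twist1*, *Snai1* and *Cdh2*, and *Cdh2* and *Snai2*. At 7 of the 8 genes the KO libraries both exceeded the higher WT library, and at *Snai3* both were under the lower one. The 7 include *Snai2* and *Zeb2*, whose values rest on few fragments. Of the 6 genes that were tested, 5 were higher and 1 was lower in this way. Over all tested features these shares were 27.0% and 31.7%. A feature was tested when its mean over the 4 libraries was at least 0.5 FPKM. This left 6 of the genes in the test, with *Snai2* and *Zeb2* below it. *Cdh2* passed with a WT mean of 0.453 and a KO mean of 0.672 FPKM, so that the KO libraries alone took it over the limit.

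**Figure D1:**
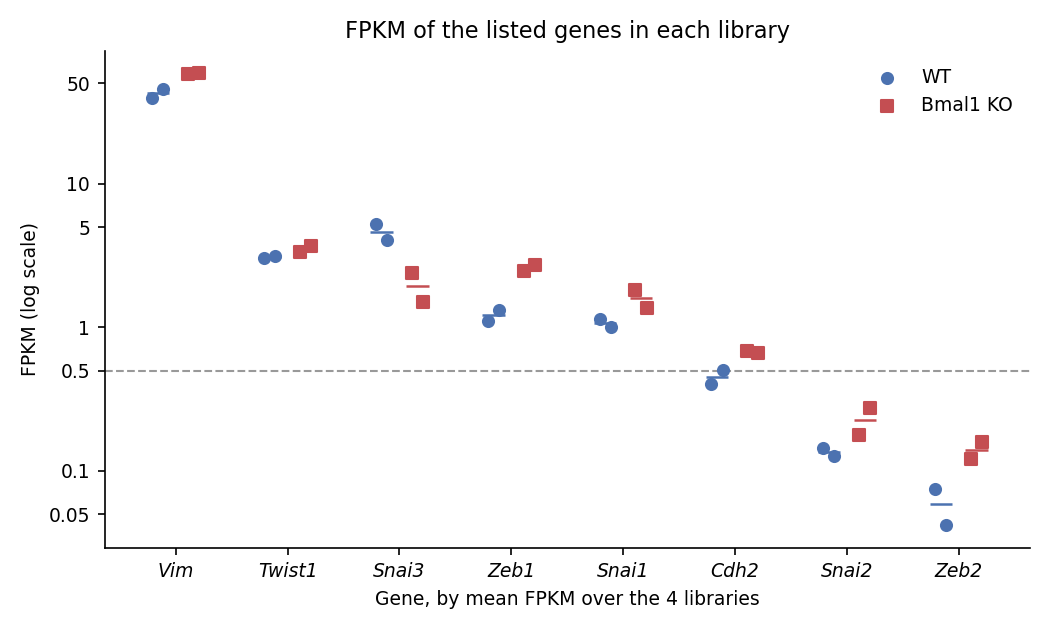
FPKM on a log axis of the 8 listed genes, ordered by mean, in the 2 WT libraries (circles) and the 2 *Bmal1* KO libraries (squares). Short lines are group means and the dashed line is the 0.5 FPKM limit on the mean of the 4 libraries. The KO libraries lie above the WT libraries at every gene but *Snai3*, and *Snai2* and *Zeb2* lie below the limit.

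The test was made in limma on log2(FPKM + 0.1), with Benjamini-Hochberg adjustment over 12990 features. A call needed more than a 2-fold change together with an adjusted p below 0.05. *Zeb1* was called up-regulated and *Snai3* down-regulated, 1 of the 6 tested genes in each direction. Among all features that entered the test, calls were made for 4.14%, with 2.72% up-regulated and 1.42% down-regulated. *Vim* also passed the limit on the adjusted p but changed by less than 2-fold. *Snai1*, *Cdh2* and *Twist1* were not called. Both calls lay near the limits and were lost under some settings, as given beside them.

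**Figure D2:**
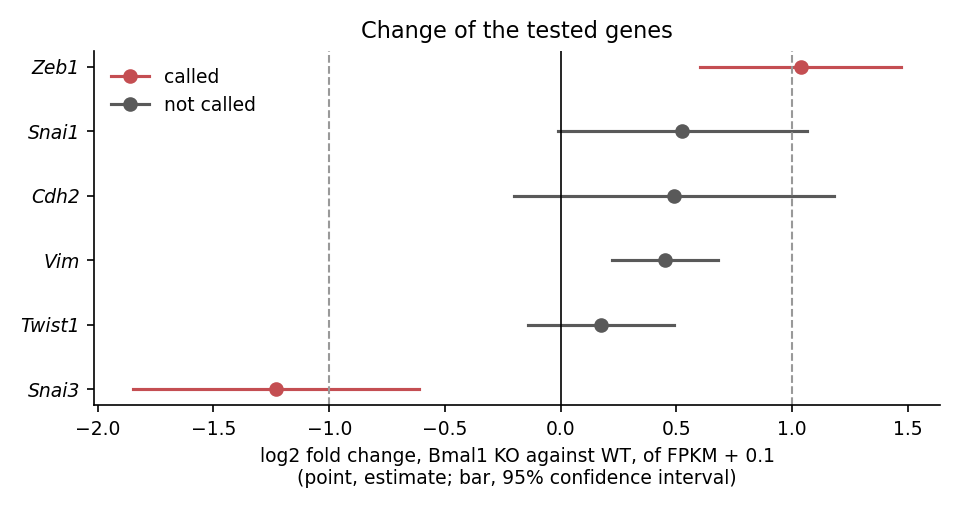
The log2 fold change of *Bmal1* KO against WT for the 6 tested genes, on the log2(FPKM + 0.1) scale, with 95% confidence intervals from limma that are not adjusted for the number of features. Dashed lines mark a 2-fold change. *Zeb1* at 1.04 and *Snai3* at -1.23 are past them, and the intervals of *Snai1*, *Cdh2* and *Twist1* include 0.

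SNAI proteins open with the SNAG domain, a short stretch that recruits histone deacetylases and the demethylase LSD1. The first 60 coding bases of the GENCODE vM21 transcripts (GRCm38) of *Snai1* and *Snai2* are shown because this is where the pair is closely alike, with the leading run that they share in capitals:
Snai1: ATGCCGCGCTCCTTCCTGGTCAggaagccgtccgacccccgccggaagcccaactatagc
Snai2: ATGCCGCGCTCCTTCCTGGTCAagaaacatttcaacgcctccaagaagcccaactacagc
The shared run is 22 bases long, and over the 60 bases *Snai2* has the base of *Snai1* at 48 positions. The longest identical stretch between the *Snai1* and *Snai2* transcripts was 23 bases, so that no longer exact match could move a read from one to the other. The same measure was 23 bases between *Twist1* and *Twist2* and between *Zeb1* and *Zeb2*.

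*Snai3*, which encodes the third of the SNAI repressors, was the SNAI gene with the highest level in WT ESCs. The gene (ENSMUSG00000006587.6) lies on the minus strand of chromosome 8 from 122454208 to 122460733 and has 1 annotated transcript. Its level was 5.24 and 4.03 FPKM in WT and 2.40 and 1.51 FPKM in KO libraries. Both KO libraries were below both WT libraries, and the means were 4.64 ± 0.857 and 1.95 ± 0.633 (SD, n = 2 each). Relative to WT, *Snai3* changed by a log2 value of -1.23 (standard error 0.25, 95% interval -1.85 to -0.61, limma adjusted p = 0.0327), a 2.34-fold lower level. With the transcript's length and the estimated depth, the values amount to about 190 and 136 fragments in WT and 78 and 52 in KO. The paper names *Snai3* among the genes lower in KO and also reports RT-qPCR of it, which is not part of these values. The call was lost without KO replicate 2, where the log2 fold change was -0.91. It was also lost with a pseudocount of 1 (-0.94), with no filter on low values (adjusted p = 0.0807) and with no variance trend (adjusted p = 0.0701).

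*Snai1*, the SNAI gene needed for mesoderm formation at gastrulation, differed in the other direction without passing the test. The gene (ENSMUSG00000042821.7) lies on the plus strand of chromosome 2 from 167538195 to 167542814. Its level was 1.14 and 1.01 FPKM in WT and 1.83 and 1.37 FPKM in KO libraries, about 34 to 59 fragments in each. The groups did not overlap, but KO replicate 2 was closer to the WT libraries than to KO replicate 1. The log2 fold change was 0.53 (standard error 0.22, 95% interval -0.01 to 1.06, adjusted p = 0.177), and the interval includes both 0 and a 2-fold change. *Snai2* (Slug), the member best known from neural crest and basal epithelia (ENSMUSG00000022676.7, chromosome 16 from 14705852 to 14709385), was at 0.146 and 0.127 FPKM in WT and 0.179 and 0.276 FPKM in KO libraries. These values amount to about 5 to 12 fragments, too few for a comparison, and the gene was not tested.

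In these libraries the make-up of the SNAI family differed between the genotypes, with *Snai3* lower and *Snai1* higher in KO. The shares reuse the *Snai3* values that gave its call, and *Snai1* on its own did not pass the test. *Snai3* made up 80.3% and 78.0% of the summed FPKM of the 3 genes in WT and 54.5% and 47.7% in KO libraries. *Snai1* made up 17.5% and 19.5% in WT and 41.5% and 43.6% in KO libraries. The sum was 6.53 and 5.17 FPKM in WT and 4.41 and 3.16 FPKM in KO libraries. *Snai3* was thus 4.6 and 4.0 times *Snai1* in WT but 1.31 and 1.10 times in KO libraries. The difference in the log2 ratio was -1.75, with within-group SDs of 0.15 and 0.18, and the groups did not overlap (two-sided exact permutation p = 0.33, the smallest that 2 against 2 libraries allow).

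**Figure D3:**
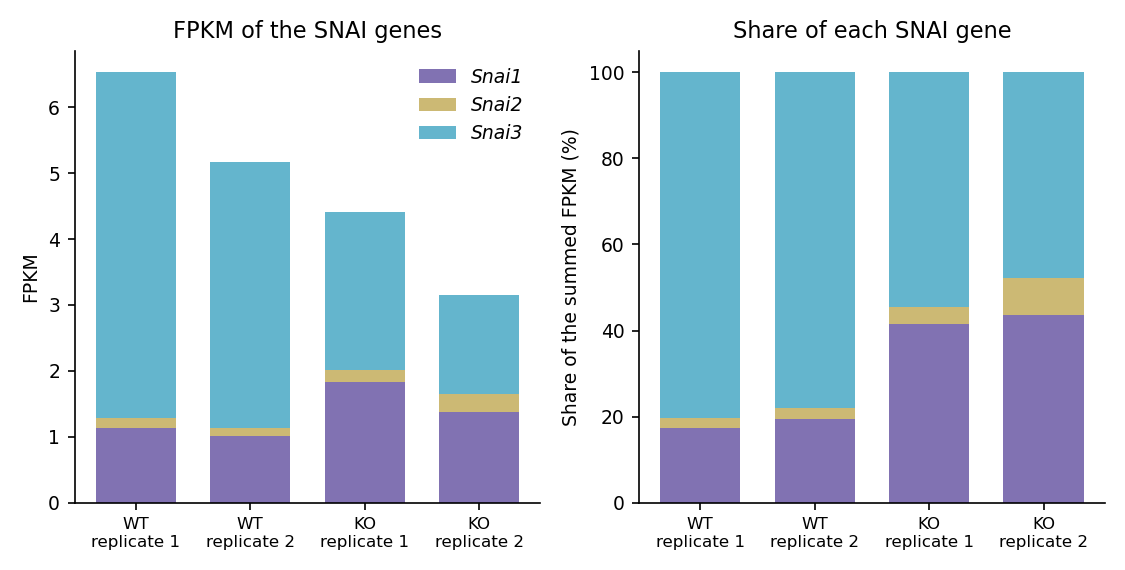
FPKM (left, stacked) and share of the summed FPKM in percent (right) of *Snai1*, *Snai2* and *Snai3* in each of the 4 libraries. *Snai3* takes 78.0% or more in the WT libraries and 54.5% or less in the KO libraries, and the sum of the 3 genes is lower in both KO libraries.

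*Snai1* was also the 1 gene with a CAGGTG element among the 5 of the group whose RefSeq promoter windows were read. The element was read on either strand as CAGGTG or CACCTG. A window ran from 250 bases before to 50 bases after the start (GRCm38.p6). Windows were read for *Snai1*, *Zeb2*, *Twist1*, *Twist2* and *Vim*, 8 windows in all. None was read for *Snai2*, *Snai3*, *Zeb1* or *Cdh2*, so neither called gene of the group is covered. Of 32851 windows over all genes, 20.2% held this element. The clock element CACGTG, the E-box that BMAL1 and CLOCK bind, was in 7.15% of all windows and in 0 of the 8 of this group, which says only that these letters are not in these windows. The *Snai1* window, at chr2:167537945-167538244 on the plus strand, is shown with its element in capitals, which begins 126 bases before the start:
Snai1 promoter: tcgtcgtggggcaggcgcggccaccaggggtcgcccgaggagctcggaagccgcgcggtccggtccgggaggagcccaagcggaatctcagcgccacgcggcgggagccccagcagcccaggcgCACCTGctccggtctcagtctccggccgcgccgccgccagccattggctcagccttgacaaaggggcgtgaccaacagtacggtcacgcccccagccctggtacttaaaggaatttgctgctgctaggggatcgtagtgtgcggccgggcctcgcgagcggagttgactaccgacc

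*Zeb1*, a repressor of E-cadherin and of the miR-200 genes, was called up-regulated in *Bmal1* KO ESCs. The gene (ENSMUSG00000024238.15) lies on the plus strand of chromosome 18 from 5591860 to 5775467. Its level was 1.11 and 1.33 FPKM in WT and 2.47 and 2.72 FPKM in KO libraries. The groups did not overlap, with means of 1.22 ± 0.155 and 2.60 ± 0.178 (SD, n = 2 each). For *Zeb1* the log2 fold change was 1.04 (standard error 0.18, 95% interval 0.60 to 1.47, adjusted p = 0.0202), a 2.05-fold higher level that is barely past the 2-fold limit. The change was under 2-fold, and the call was lost, without WT replicate 1 (0.92), without KO replicate 2 (0.97), with quantile normalization (0.98) and with a pseudocount of 1 (0.70). With no filter on low values the adjusted p was 0.0543. *Zeb1* has 12 annotated transcripts of which 3 code for protein, and these coding transcripts run from 774 to 5801 bases, so that the fragments behind its FPKM are known only as a range of 19 to 143 in WT replicate 1 and 45 to 335 in KO replicate 2. The deposited feature begins about 100 kb before the annotated gene and shares its coordinates with 2 features named *Gm10125*. The higher of these was at 0 and 0.198 FPKM in WT and 0.664 and 0.453 FPKM in KO libraries, so it too was higher in KO. The lower was at 0.0349 FPKM in KO replicate 1 and at 0 in the rest. What such sharing does to the *Zeb1* value was not tested.

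*Zeb2* (ENSMUSG00000026872.17, chromosome 2 from 44983632 to 45117395), the ZEB gene of neural crest and neural precursors, was close to the lower end of what was measured. It was at 0.0749 and 0.0418 FPKM in WT and 0.120 and 0.158 FPKM in KO libraries and was not tested. Both KO libraries were above both WT libraries, but even with its longest coding transcript the values amount to no more than 8 to 30 fragments. The feature overlaps *Zeb2os*, an antisense gene, and reads of the pair cannot be told apart unless strand was used in counting, which is not given in the sources used here.

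*Twist1* (ENSMUSG00000035799.6, chromosome 12 from 33957671 to 33959829), the bHLH factor of mesoderm and cranial neural crest, was at a level similar to that of *Snai3* and differed little between the genotypes. Its level was 3.04 and 3.14 FPKM in WT and 3.34 and 3.66 FPKM in KO libraries, about 106 to 126 fragments in each. The KO libraries were above the WT libraries by a small margin. The change of *Twist1* on the log2 scale was 0.17 (standard error 0.13, 95% interval -0.14 to 0.49, adjusted p = 0.418), and the interval leaves out a 2-fold change in either direction.

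Of the mesenchymal effectors, vimentin was abundant in ESCs of both genotypes. *Vim*, which encodes the intermediate filament of mesenchymal cells (ENSMUSG00000026728.9, chromosome 2 from 13573927 to 13582826), was at 39.8 and 45.9 FPKM in WT and 58.0 and 58.8 FPKM in KO libraries. The WT libraries differed more from each other than the KO libraries did, and the groups did not overlap. For *Vim* the log2 fold change was 0.45 (standard error 0.09, 95% interval 0.22 to 0.68, adjusted p = 0.0330), a 1.37-fold higher level. The limit on the adjusted p alone was passed by 12.5% of all tested features. The adjusted p of *Vim* ran from 0.00385 to 0.0872 over the alternative settings and was above 0.05 with no filter, with no variance trend and when WT replicate 1, KO replicate 1 or KO replicate 2 was left out. *Cdh2* (ENSMUSG00000024304.14, chromosome 18 from 16588877 to 16809246) was at 0.404 and 0.501 FPKM in WT and 0.683 and 0.661 FPKM in KO libraries. Its log2 fold change was 0.49 (standard error 0.28, 95% interval -0.20 to 1.18, adjusted p = 0.306), which did not pass the test.

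The cadherins were set against each other within each library. *Cdh1* was at 149 and 145 FPKM in WT and 123 and 120 FPKM in KO libraries (log2 fold change -0.28, standard error 0.07, adjusted p = 0.0557). *Cdh1* was 369 and 289 times *Cdh2* in WT and 180 and 182 times *Cdh2* in KO libraries. The difference in the log2 ratio was -0.76 and the groups did not overlap (two-sided exact permutation p = 0.33, again the smallest possible).

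**Figure D4:**
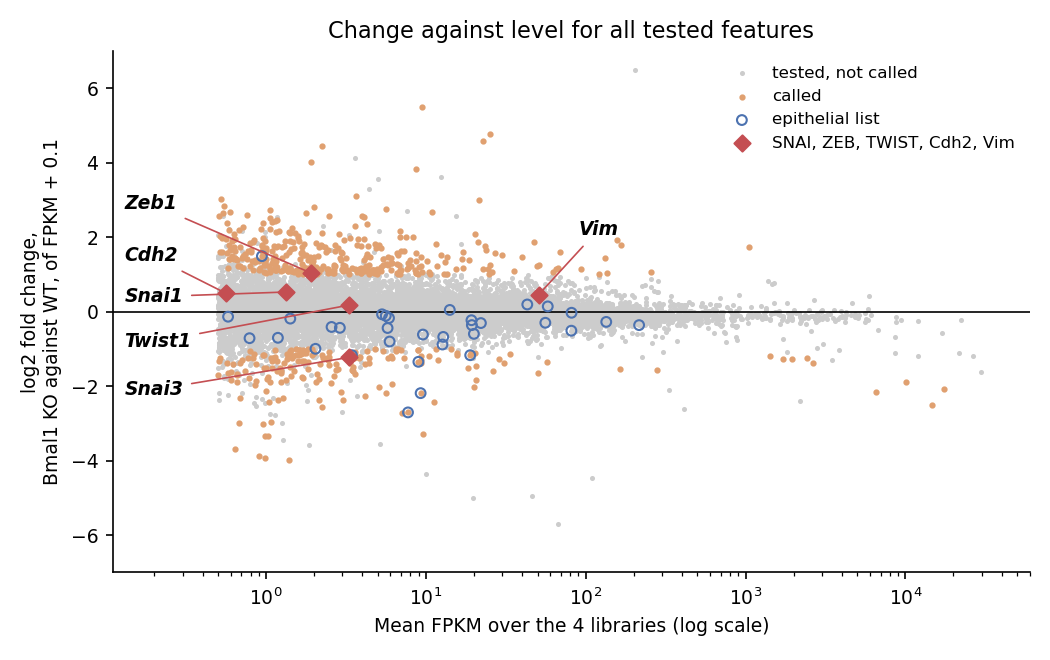
The log2 fold change of *Bmal1* KO against WT against mean FPKM (log axis) for all 12990 tested features, with called features in orange, tested genes of the epithelial list as open circles and the 6 tested genes of the group as diamonds. *Zeb1* and *Snai3* lie at the inner edge of the called features, *Vim* lies among the not called features at high expression, and most open circles lie below 0.

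The features whose 4 values ran most like those of the called genes were sought among 10985 tested features with a symbol and a mean of at least 1 FPKM, by the root mean square difference of log2 values centred on each feature's own mean. For *Snai3* they were *Cldn7*, a tight junction claudin (0.07), *1810044D09Rik* (0.11) and *Nhlrc1*, an E3 ubiquitin ligase (0.11). *Cldn7* was at 14.5 and 11.3 FPKM in WT and 6.03 and 4.08 FPKM in KO libraries, so that it was also lowest in KO replicate 2 and highest in WT replicate 1. For *Zeb1* they were *Pou4f2*, a POU factor of retinal ganglion cells (0.02), *Tspan6*, a tetraspanin (0.03), and *App*, the amyloid precursor gene (0.04). The likeness is over 4 libraries only, and the *Snai3* and *Zeb1* values that it was measured against are those that gave the calls.

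None of the tested neighbours of *Snai3* on the chromosome was called. Their log2 fold changes ran from -0.39 for *Mvd*, an enzyme of sterol synthesis, to 0.17 for *Piezo1*, a mechanosensitive channel. Of the 6 neighbours of *Zeb1*, *Svil*, which encodes the actin-binding supervillin, was at 2.79 and 2.81 FPKM in WT and 4.35 and 4.84 FPKM in KO libraries (log2 fold change 0.69, adjusted p = 0.0245, under 2-fold). The other 5 had adjusted p-values of 0.0926 to 0.976.

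Epithelial genes, on which SNAI and ZEB repressors are known to act, were mostly lower in KO libraries. Of 34 genes in this list 33 were tested. Of these, 29 had a negative and 4 a positive log2 fold change, and their median was -0.41 against -0.02 over all tested features. At 24 of the 33 both KO libraries were under both WT libraries, where 31.7% of all tested features were. The test called 5 down-regulated and 1 up-regulated, and by the adjusted p alone 12 were lower and 1 higher. *Rab25*, a GTPase of apical recycling endosomes, had the largest fall in the list. It was at 13.2 and 13.7 FPKM in WT and 2.29 and 1.70 FPKM in KO libraries (log2 fold change -2.71, standard error 0.16, adjusted p = 0.00169). *Esrp1*, the splicing factor that sets epithelial isoforms, was at 15.0 and 15.5 FPKM in WT and 2.97 and 3.59 FPKM in KO libraries (log2 fold change -2.19, standard error 0.12, adjusted p = 0.00169). *Cldn7*, *Grhl1*, a grainyhead factor, and *Pkp2*, a desmosomal plaque protein, were called at log2 fold changes of -1.35, -1.17 and -1.17, and the call of *Grhl1* was lost with a pseudocount of 1 (-0.92). *Krt19*, a simple epithelial keratin, was up-regulated from 0.411 and 0.449 FPKM in WT to 1.90 and 1.00 FPKM in KO libraries (log2 fold change 1.49, adjusted p = 0.0445), and this call was lost with a pseudocount of 1, with no filter, with no variance trend and without KO replicate 1. With a WT mean of 0.430 FPKM, *Krt19* entered the test through the KO libraries alone, as *Cdh2* did. The most abundant genes of the list were *Spint2*, a protease inhibitor (log2 fold change -0.36, adjusted p = 0.0260), *Cdh1* and *Cldn4* (log2 fold change -0.03, adjusted p = 0.849). *Ocln* (occludin), picked out after its values were seen, was just short of a 2-fold change at a log2 fold change of -0.998 (adjusted p = 0.0215).

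RefSeq promoter windows were at hand for 21 epithelial genes, 29 windows in all, some of which overlap because a gene can have several starts. CAGGTG or CACCTG was found in 20 of these windows, belonging to 16 genes, against the 20.2% of all windows given above. CACGTG was found in 3. Both *Rab25*, which had the largest fall, and *Cldn7*, the gene whose values ran most like those of *Snai3*, held the element in a pair of places, which are in capitals. The *Rab25* window lies at chr3:88548230-88548529 on the minus strand, with the elements beginning 64 and 53 bases before the start. The second of the *Cldn7* windows lies at chr11:69965171-69965470 on the plus strand, with the elements beginning 97 and 57 bases before the start, and its other window held none. *Cldn4* and *Cldn6*, with log2 fold changes of -0.03 and 0.04, each held it in a pair of places too, and both windows of *Grhl1*, which was called down-regulated, held none. A match of letters is no evidence of binding.
Rab25 promoter: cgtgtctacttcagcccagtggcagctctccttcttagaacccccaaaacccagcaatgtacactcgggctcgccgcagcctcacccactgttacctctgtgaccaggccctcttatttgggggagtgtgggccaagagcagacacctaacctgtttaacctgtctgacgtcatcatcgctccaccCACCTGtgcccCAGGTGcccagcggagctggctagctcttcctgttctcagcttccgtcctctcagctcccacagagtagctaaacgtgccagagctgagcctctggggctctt
Cldn7 promoter: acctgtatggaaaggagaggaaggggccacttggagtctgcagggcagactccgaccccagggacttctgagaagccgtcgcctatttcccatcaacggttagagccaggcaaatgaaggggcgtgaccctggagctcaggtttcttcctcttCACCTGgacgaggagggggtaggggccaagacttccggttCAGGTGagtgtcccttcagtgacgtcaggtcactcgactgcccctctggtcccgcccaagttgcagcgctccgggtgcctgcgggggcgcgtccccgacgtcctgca

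The miR-200 microRNAs and *ZEB* transcripts are known to repress each other. Of the miR-200 and miR-205 genes *Mir429* matched a row, whose feature (chr4:156052797-156053987) is longer than the hairpin and so reads the primary transcript and not the mature microRNA. It was at 0.863 and 1.36 FPKM in WT and 0.587 and 0.448 FPKM in KO libraries (log2 fold change -0.95, standard error 0.31, adjusted p = 0.106), which did not pass the test. The mature sequence from RefSeq (GRCm38.p6) is shown with the seed, bases 2 to 8, in capitals, since miR-200b-3p and miR-200c-3p carry the same seed:
miR-429-3p: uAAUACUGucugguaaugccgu

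Other mesenchymal genes differed in both directions. Of 31 in the list 14 were tested, 7 with positive and 7 with negative log2 fold changes. Their median was 0.10. It was -0.06 when genes with low values were kept and 0.33 when a mean of at least 1 FPKM was asked for. *Tgfbi*, an extracellular matrix protein induced by TGF-β, was up-regulated from 1.11 and 1.15 FPKM in WT to 7.58 and 6.47 FPKM in KO libraries (log2 fold change 2.53, standard error 0.15, adjusted p = 0.00169). *Mmp2*, a matrix metalloproteinase, was up-regulated with a log2 fold change of 1.09 (adjusted p = 0.0238), a call lost without WT replicate 2 or KO replicate 2, with a pseudocount of 1 and with no filter. *Tagln*, the smooth muscle protein transgelin, was down-regulated from 5.59 and 4.22 FPKM in WT to 2.18 and 1.93 FPKM in KO libraries (log2 fold change -1.21, adjusted p = 0.0136), a call lost with a pseudocount of 1 (-0.94). The most abundant were *Fn1* (fibronectin), with a log2 fold change of 0.50 (adjusted p = 0.0206), *Itgb1* (-0.13, adjusted p = 0.438) and *Sparc* (-0.31, adjusted p = 0.0459).

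In the bHLH network around TWIST1, 3 ID genes passed the limit on the adjusted p, 1 of them as a call, and the E protein genes did not. TWIST1 pairs with E proteins, and ID proteins take E proteins away from such pairs. Of 9 E protein, ID and related genes 7 were tested, 6 with a positive log2 fold change and a median of 0.41. At 5 of the 7 both KO libraries were above both WT libraries, which held for 27.0% of all tested features. *Id2* was up-regulated from 6.69 and 7.60 FPKM in WT to 18.1 and 21.4 FPKM in KO libraries (log2 fold change 1.45, standard error 0.12, adjusted p = 0.00410). *Id1* and *Id3* had log2 fold changes of 0.59 and 0.69 with adjusted p-values of 0.00746 and 0.00994. The E protein gene *Tcf3* was at 48.0 to 59.0 FPKM in all libraries, with overlapping groups (log2 fold change 0.13, adjusted p = 0.432). The E protein genes *Tcf4* and *Tcf12*, both picked out after their values were seen, differed in opposite directions. Their log2 fold changes were 0.41 (adjusted p = 0.137) and -0.38 (adjusted p = 0.0720).

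Of the 24 genes for signals that act upstream of the group 16 were tested, 9 with positive and 7 with negative log2 fold changes, and 1 was called. *Bmp7* was up-regulated from 0.233 and 0.339 FPKM in WT to 0.888 and 0.990 FPKM in KO libraries (log2 fold change 1.44, adjusted p = 0.0349). It too entered the test through the KO libraries alone, with a WT mean of 0.286 FPKM, and its call was lost without either KO replicate, with a pseudocount of 1 and with no filter. *Bmp4*, at 26.5 and 21.9 FPKM in WT and 43.2 and 39.6 FPKM in KO libraries, had a log2 fold change of 0.78 (adjusted p = 0.0136). *Ctnnb1* (β-catenin) and *Fgf4* had log2 fold changes of 0.25 (adjusted p = 0.0710) and 0.30 (adjusted p = 0.0493). Among the genes with lower values, *Smad7*, an inhibitor of TGF-β signalling, and *Nodal*, both picked out after their values were seen, had log2 fold changes of -0.53 (adjusted p = 0.0269) and -0.31 (adjusted p = 0.0812).

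Genes of the machinery through which these repressors act were measured, with calls read against the 4.14% of all tested features that were called. All 15 corepressor genes were tested, and 0 were called or passed the adjusted p alone in limma (1 at an unadjusted p below 0.05). Their median log2 fold change was -0.01. Over all 12990 tested features, 3844 had an unadjusted p below 0.05. In lists this short, 0 calls is close to the share of calls over all features. The most abundant corepressor genes were *Hdac1* (log2 fold change -0.11), *Ctbp2* (-0.05) and *Hdac2* (0.22). Of 17 genes for kinases, ubiquitin ligases and other regulators of SNAI and TWIST protein stability 16 were tested and 0 were called in limma (2 at an unadjusted p below 0.05), with *Cops2* at a log2 fold change of -0.31, *Gsk3a* at 0.09 and *Csnk1e* at 0.11. By the adjusted p alone 1 of these passed, the kinase gene *Pak1*, at -0.49 (adjusted p = 0.0497). A list of 14 genes of cadherins, catenins and their junction partners also held *Cdh1* and *Ctnnb1*, already given above. Of these 14, 9 were tested and 0 were called in limma (4 at an unadjusted p below 0.05), with *Ctnna1* at a log2 fold change of 0.18. Of 17 intermediate filament and lamin genes 15 were tested and *Krt19* and *Des* (desmin) were called up-regulated, *Des* from 1.45 and 1.17 FPKM in WT to 3.52 and 2.93 FPKM in KO libraries (log2 fold change 1.23, adjusted p = 0.0145; 0.87 and not called with a pseudocount of 1). The 5 genes listed here as SNAG domain relatives, a list that need not be complete, were all below the limit of the test. The highest of these 5 was *Scrt2* at 0.222 to 0.582 FPKM.

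**Figure D5:**
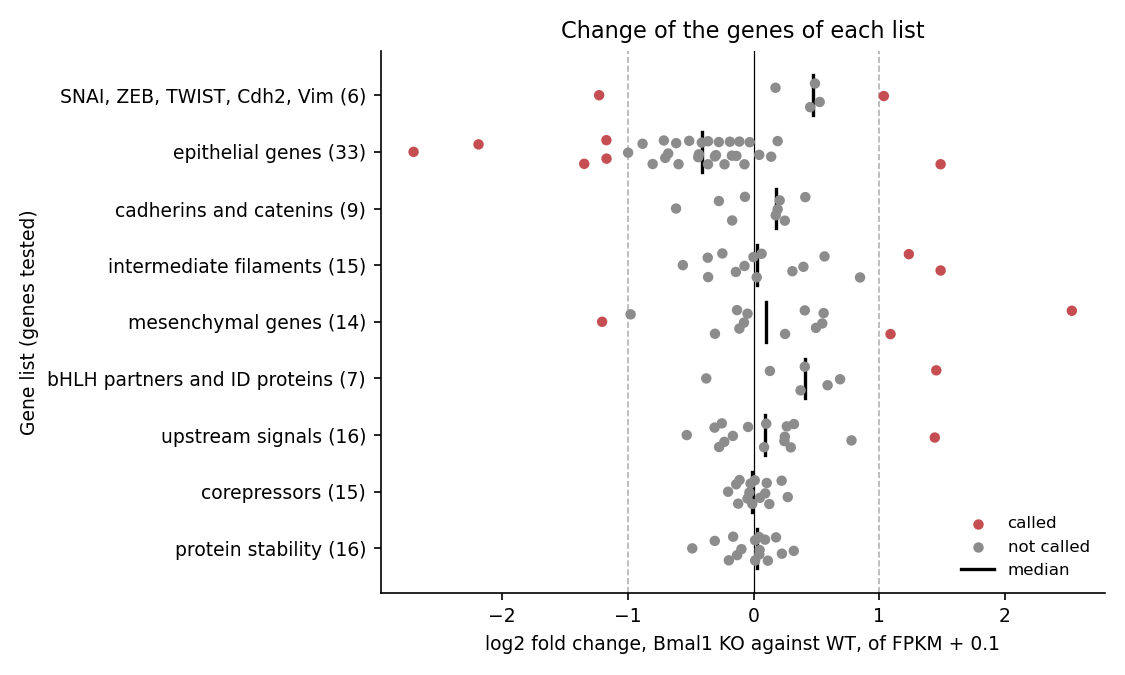
The log2 fold change of *Bmal1* KO against WT for each tested gene of 9 lists, with called genes in red and the median of each list as a vertical bar. The number of tested genes is in parentheses and dashed lines mark a 2-fold change. The epithelial list has a median of -0.41, while the medians of the corepressor and protein stability genes lie close to 0.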

How the data were processed

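The authors depleted ribosomal RNA, aligned reads to GRCm38 with TopHat2 2.1.1 and Bowtie2 2.3.0 and deposited, for each library, the FPKM that Cufflinks 2.2.1 estimated per feature. Cufflinks shares fragments between transcripts of a gene and between features that overlap, so that FPKM of genes with many transcripts depend on its model. Counts are not used here, and the depths given are estimates from the FPKM steps. Features were found by symbol, and those averaging 0.5 FPKM or more were compared as log2(FPKM + 0.1) in limma 3.58.1 (R 4.3.3) with a variance trend, and each adjusted p for a gene is from this test with Benjamini-Hochberg adjustment. Ratios within a library were compared with an exact permutation test. The alternatives were a pseudocount of 1 or 0.01, no filter, a minimum mean of 1 FPKM, quantile normalization, median-of-ratios scaling, a replicate block, no variance trend, FPKM summed by symbol and leaving out each library. Fold changes on this scale understate those of low genes. Python 3.11.15 with scipy 1.17.1, pandas 2.3.3 and matplotlib 3.10.9 served for the rest. In simulated data for the comparison of KO with WT over 12979 features, 192 of 200 features changed 4-fold were called, with 5 false calls. The changed features had a mean of at least 1 FPKM. Features of similar level were given the same spread, with independent normal noise. The simulated counts describe that setting and are not rates for the deposited values. Smaller changes, such as those of *Zeb1* and *Snai3*, were not simulated, so this gives no rate for them.

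The genes, the related lists and the settings were chosen with earlier results of these data known. Named were the 9 genes, the called genes (up to 6) and the 3 most abundant of each list, and the 3 closest profiles of each called gene. Others are marked as picked out afterwards. Neighbours were taken by position. Gene models came from GENCODE vM21 and promoters and microRNA from RefSeq, and 1 was added to the files' starts, which count from 0. One coding sequence is not reported here.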

Additional observations from a re-analysis of the deposited data

How the results depend on the processing

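The 6 tested genes kept their direction under all 13 alternatives (12 for *Cdh2*, which a minimum mean of 1 FPKM leaves out). *Snai3* stayed called in 9 of them, with log2 fold changes from -1.55 to -0.91, and *Zeb1* in 8, from 0.70 to 1.16. With a pseudocount of 1, up-regulated features numbered 146 in place of 353 and down-regulated ones 85 in place of 185, of the group 0 up and 0 down, and of the 119 related genes 2 up-regulated in place of 6 and 4 down-regulated in place of 6. That pseudocount shrinks changes of low values by construction. It also moved the *Snai3* to *Snai1* log2 ratio difference to -1.26 and that of *Cdh1* to *Cdh2* to -0.48. With no filter on low values 0 of the group were called up and 0 down, with quantile normalization 0 up and with no variance trend 0 down. The causes were not tested. Leaving out 1 library at a time, the up-regulated features numbered 316 to 484 and the down-regulated 251 to 331. The group had 0 to 1 calls up and 0 to 1 down, the related genes 4 to 6 up and 7 to 8 down. The log2 ratio differences ran from -1.88 to -1.63 for *Snai3* over *Snai1* and from -0.91 to -0.62 for *Cdh1* over *Cdh2*. In these fits a lone library is assumed to vary like the other group.

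With the replicate number as a replicate block, calls numbered 392 for up-regulation and 240 for down-regulation. They held 352 of the 353 and 185 of the 185 made without it, and the group again had 1 call up and 1 down (adjusted p = 0.0122 for *Zeb1* and 0.00551 for *Snai3*). No call of the group or of the related genes changed. The labels share only a number: across 12990 features the replicate differences in WT and KO gave Pearson's r = 0.07 and Spearman's rho = 0.39. In low features, 26.2% and 23.4% of the log2 ratios of same-numbered WT and KO libraries fell in 1 narrow bin, against 5.87% to 7.05% for the other pairs, a hint from the data and not from the design that equal numbers were processed alike. Depth limits *Snai2* and *Zeb2*, whose values rest on few fragments.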
